A study of Mus musculus with 13 samples.

Results

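The genes for the receptors of the colony-stimulating factors and of IL-3 were followed in bone marrow (BM) progenitors of mice that carried mutant p53, oncogenic Nras, both, or neither. They were chosen by name and number 6 of the 54838 genes in the count table: Csf1r, Csf3r, Csf2ra, Il3ra, Csf2rb, and Csf2rb2. RNA was sequenced from 50000 sorted Lin- cKit+ BM cells, that is, cells that lack surface proteins of mature blood lineages and carry the stem cell factor receptor, with 1 library per mouse and 13 libraries in all. The mice, on a C57BL/6J background, all carried Mx1-Cre, a recombinase under an interferon-inducible promoter that acts in blood cells and other tissues. The 3 control mice carried Mx1-Cre alone, the 3 p53mut mice also p53 R172H/+, the 3 NrasG12D mice also one oncogenic Nras allele, and the 4 NPmut mice both p53 R172H/+ and Nras G12D/+. The titles of the single Nras mutants read G12D, whereas their genotype field reads G21D. Control and single-mutant mice received 3 injections of 100 μg of pI:pC, an inducer of interferon, from an age of about 6 weeks. NPmut mice received none, because a first injection had left such mice dead or moribund within days, which the study held to be likely due to leaky Cre and amplified interferon signaling. They were moribund when they were sampled, whereas the other mice were age-matched. Genotype, injections, and disease stage therefore cannot be told apart in any comparison with NPmut mice.

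Hematopoietic cytokines of this group bind surface receptors on progenitors and steer their survival, proliferation, and choice of lineage. CSF1R is a receptor tyrosine kinase for CSF1 (M-CSF) and IL-34, and is the receptor of the monocyte and macrophage lineage. CSF3R, a homodimeric receptor without kinase activity of its own, binds G-CSF and is known for neutrophil production. The receptors of GM-CSF and IL-3 pair a ligand-specific alpha chain, CSF2RA or IL3RA, with a signaling beta chain. CSF2RB is the common beta chain of GM-CSF, IL-3, and IL-5 receptors, while CSF2RB2 is a second beta chain of the mouse that serves the IL-3 receptor. All signal through JAK kinases, STAT proteins, and RAS, except that CSF1R starts from its own kinase.

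The libraries held from 12576174 to 29124022 counts, and 17795 genes, among them all 6 receptor genes, had enough counts to be tested. Kit, the gene of the sorted antigen, had 540 ± 31.7 CPM (counts scaled to library size; SD, n = 3) in control and 372 ± 66.4 (n = 4) in NPmut libraries. Summed markers of B lymphoid cells stayed at or under 27.8 CPM, and those of T and NK cells at or under 68.7 CPM. Stromal and endothelial markers summed to 87.4 to 108 CPM in control and 125 to 157 CPM in NPmut libraries. The higher sum did not hold for most of these markers taken singly. Of 5 tested with edgeR's quasi-likelihood test, 3 were lower in NPmut libraries and 1, Pecam1, was higher (adjusted p under 0.05). Of all genes tested, 5.54% were lower and 5.38% higher. Neutrophil markers are given below. Y-linked genes marked 5 of the 13 mice as male, at least 1 per group. Genes of 1967 olfactory and vomeronasal receptors, known from the nose, summed to 109 to 202 CPM in control and 63.1 to 147 in p53mut libraries. They summed to 40.3 to 47.6 CPM in NrasG12D and 18.4 to 61.0 in NPmut libraries. These reads were fewer in NPmut than in control libraries, and the NrasG12D range lay within the NPmut range. Their part in the results was not tested. In bulk RNA, a change in the number of cells that express a gene and a change in the RNA per cell cannot be told apart.

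Per exonic length and library total (RPKM), Csf2ra and Csf3r led in control libraries, with 25.5 ± 0.421 and 25.3 ± 4.03 RPKM (SD, n = 3), and their libraries overlapped. Csf1r and Csf2rb followed at 9.82 ± 0.675 and 9.45 ± 0.871 RPKM, again without a gap between them. Il3ra had 4.30 ± 0.132 RPKM and Csf2rb2 1.61 ± 0.281, each clear of the gene above it. The order of the last 4 genes was the same in p53mut and NrasG12D libraries, where Csf3r and Csf2ra overlapped at the top. In NPmut libraries, the order of the means changed to Csf2ra with 35.2 ± 8.47 RPKM, Csf1r with 25.3 ± 5.25, Csf3r with 18.5 ± 1.25, and Csf2rb with 17.6 ± 2.53 (SD, n = 4), and each of these overlapped the next. Il3ra, with 8.09 ± 1.40 RPKM, and Csf2rb2, with 2.88 ± 1.07, stayed below them.

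**Figure D1:**
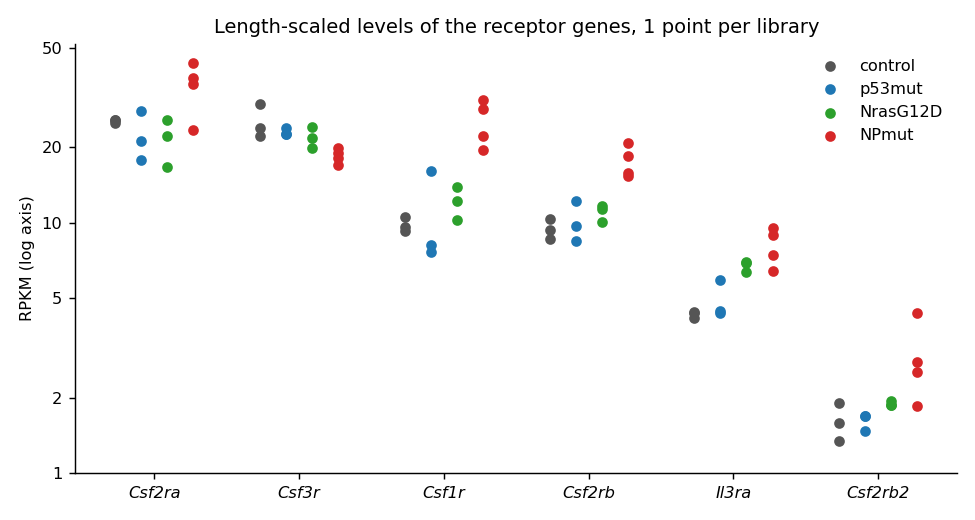
Levels of the 6 receptor genes per exonic length (RPKM, log axis), with 1 point per library and colors for the 4 groups. Csf1r lay at 9.28 to 10.6 RPKM in control libraries, below every Csf3r value there, and at 19.6 to 30.9 RPKM in NPmut libraries, where Csf3r stayed below the Csf1r value of 3 of the 4 libraries.

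The beta chain genes are neighbors, Csf2rb2 (ENSMUSG00000071714, chr15:78282507-78305721, minus strand) and Csf2rb (ENSMUSG00000071713, chr15:78325752-78353847, plus strand; GRCm38), with 20030 bases between them. They are near copies. Of 2628 aligned bases of their longest coding sequences in GENCODE M21, 95.2% are identical, and 11.3% of the stretches of 100 bases in the Csf2rb2 coding sequence occur unchanged in a Csf2rb transcript. The 90 coding bases in which they differ most, at 16 positions, show what separates reads of one gene from reads of the other (chr15:78338897-78338986 for Csf2rb, chr15:78294345-78294434 for Csf2rb2; both within 1 exon; capitals mark the bases that differ).
Csf2rb: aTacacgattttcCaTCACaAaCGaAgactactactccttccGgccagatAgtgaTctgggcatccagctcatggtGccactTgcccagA
Csf2rb2: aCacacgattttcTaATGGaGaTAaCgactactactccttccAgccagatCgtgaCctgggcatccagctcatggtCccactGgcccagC
Their longest shared coding run, 242 bases in the last coding exon (chr15:78348577-78348818 for Csf2rb, chr15:78284630-78284871 for Csf2rb2), cannot assign a read to either gene.
Csf2rb and Csf2rb2: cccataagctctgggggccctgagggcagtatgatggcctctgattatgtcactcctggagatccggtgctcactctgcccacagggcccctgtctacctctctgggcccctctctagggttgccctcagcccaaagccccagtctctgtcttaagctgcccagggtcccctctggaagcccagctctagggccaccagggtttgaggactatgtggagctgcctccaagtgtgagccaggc
How the authors' counting treated such reads is not given in the sources used here, so the split between the beta chains is uncertain, and their sum is given as well.

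NPmut progenitors had more RNA of the CSF1 receptor, of the IL-3 receptor alpha chain, and of both beta chains than control progenitors, and not of the G-CSF receptor. Csf1r was 2.80-fold higher, Il3ra 2.06-fold, Csf2rb 2.03-fold, and Csf2rb2 1.94-fold. These 4 of the 6 receptor genes passed an adjusted p-value of 0.05 in edgeR's quasi-likelihood test, all of them higher, beside 5.38% of all genes tested that were higher, 5.54% that were lower, and 10.9% in either direction. The median log2 fold change was 0.99 over the 6 receptor genes and 0.01 over all genes tested.

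Csf1r (ENSMUSG00000024621, chr18:61100598-61132149, plus strand) had 52.0, 60.4, and 51.9 CPM in the control libraries and 180, 184, 129, and 121 CPM in NPmut libraries 1 to 4. The lowest NPmut library was well above the highest control library, so the groups did not overlap. The share of all genes without overlap between NPmut and any other group was not counted, for this gene or for those below. The difference on the log2 scale was 1.49 (SE 0.25, adjusted p = 0.00240), the largest of the 6 genes. Hmgxb3, on the opposite strand, shares 873 exonic bases with Csf1r, and its own difference was -0.12 on the log2 scale (adjusted p = 0.534). The strand setting of the counting is not given in the sources used here, so reads in the shared bases cannot be assigned.

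Csf3r (ENSMUSG00000028859, chr4:126024550-126044440, plus strand) went the other way, with 105, 79.0, and 81.1 CPM in control and 69.0, 73.3, 61.5, and 76.9 CPM in NPmut libraries. The groups did not overlap, although NPmut 4 and control 2 came close to each other. The log2 fold change was -0.33 (SE 0.12), and the adjusted p-value of 0.0877 did not pass. Scaled by library totals, which moved the median log2 fold change of all genes from 0.01 to -0.11, the difference was -0.45 and passed (adjusted p = 0.0197). That scaling also moved the share of higher genes among all called from 49.3% to 32.3%, and from 48.3% to 36.3% against p53mut libraries, while the 4 receptor genes above stayed higher and called.

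Of the alpha chains, Il3ra (ENSMUSG00000068758, chr14:14346275-14356011, plus strand) rose and Csf2ra did not pass. Il3ra had 11.95, 12.9, and 12.2 CPM in control and 22.3, 31.7, 19.1, and 28.3 CPM in NPmut libraries. There was no overlap, and the control libraries lay close together. On the log2 scale, Il3ra differed by 1.04 (SE 0.18, adjusted p = 0.00226). Csf2ra (ENSMUSG00000059326, chr19:61223957-61228429, minus strand) had 69.8, 73.3, and 69.2 CPM in control and 104, 122, 67.4, and 133 CPM in NPmut libraries. NPmut 3 was at the control level, below every control library, and the other 3 NPmut libraries were above all of them. The log2 fold change was 0.59 (SE 0.21, adjusted p = 0.0923), and without NPmut 3 it was 0.76 (adjusted p = 0.0126). Over 15 refits, Csf2ra was called in 2, and its adjusted p-value lay between 0.000221 and 0.223.

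Both beta chains rose. Csf2rb had 73.2, 67.5, and 58.8 CPM in control and 153, 151, 112, and 122 CPM in NPmut libraries, without overlap. The log2 fold change was 1.02 (SE 0.15, adjusted p = 0.000900), which had the smallest standard error among the 4 called genes. Csf2rb2 had 6.15, 8.90, and 7.03 CPM in control and 20.9, 14.8, 12.01, and 9.33 CPM in NPmut libraries. The groups did not overlap, but NPmut 4 was only just above control 2, and the spread among NPmut libraries was wide. The log2 fold change was 0.96 (SE 0.24, adjusted p = 0.0178), and the adjusted p-value was 0.0783 without control 1 and 0.0784 without control 3. With the reads of the beta chain genes summed, the log2 fold change was 1.01 (SE 0.15, adjusted p = 0.000794).

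**Figure D2:**
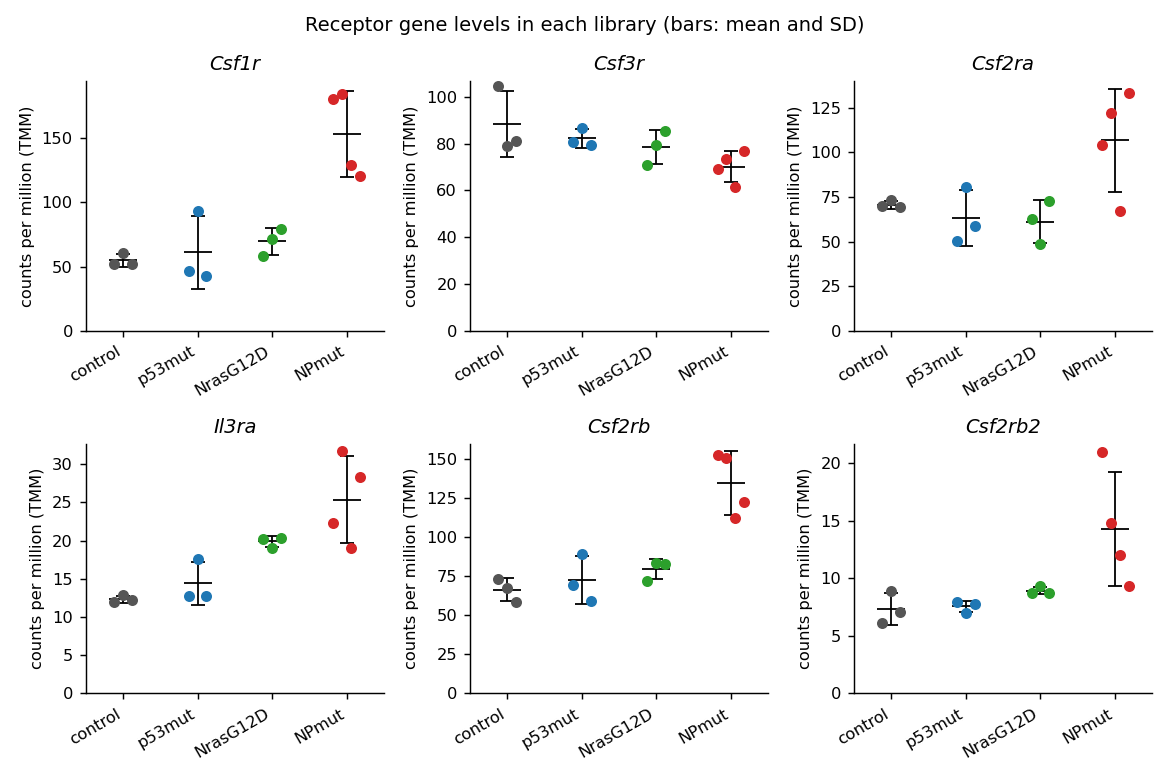
CPM, on TMM-scaled library sizes, of each receptor gene in every library of the 4 groups, with horizontal bars at the mean and error bars for the SD. The 4 NPmut libraries lie above all control libraries for Csf1r, Il3ra, Csf2rb, and Csf2rb2, below them for Csf3r, and on both sides of them for Csf2ra. The share of all genes that separate in this way was not counted.

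Mutant p53 alone came with no detected change of the receptors. None of the 6 genes was called in p53mut against control libraries with edgeR, 0 of 6 had an unadjusted p under 0.05, and 0 were called with DESeq2. The background was 0% of all genes tested, with 415 genes under an unadjusted p of 0.05 and 2 called with DESeq2. The log2 fold changes ran from -0.16 for Csf2ra to 0.22 for Il3ra, with standard errors of 0.13 to 0.26. One library stood apart: p53mut 2 had 93.6 CPM of Csf1r, above every control library, while p53mut 1 and 3 had 46.5 and 42.8 CPM, below every control library. It also had the highest Csf2ra (80.9 CPM), Csf2rb (89.3 CPM), and Il3ra (17.6 CPM) of its group. The 16 monocyte and macrophage markers summed to 969 CPM in that library and to 604 and 545 CPM in p53mut 1 and 3. Their part in the spread was not tested. Without p53mut 2, the log2 fold change of Csf1r turned from 0.15 to -0.29 and that of Csf2rb from 0.13 to -0.04, and without control 1 that of Csf2rb2 turned from 0.04 to -0.06 and that of Csf3r from -0.10 to 0.05, none of them called. With the replicate number as a block in the control and p53mut libraries alone, 56 genes were called and still 0 of the 6.

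With oncogenic Nras alone, no receptor gene passed the test over all genes, and Il3ra differed most from the control libraries. Il3ra had 20.3, 19.1, and 20.3 CPM in NrasG12D libraries, against 11.95, 12.9, and 12.2 CPM in control. Both groups were tight, and they did not overlap. The share of all genes without overlap between these groups was not counted. The difference was 1.61-fold, which is 0.69 on the log2 scale (SE 0.19, unadjusted p = 0.00229, adjusted p = 0.223). In a fit of the NrasG12D and control libraries alone, the log2 fold change was 0.68 with an adjusted p of 0.0306, and 239 genes in all were called in that fit, against 1 with all libraries. Over all refits, the adjusted p-value of Il3ra lay between 0.0306 and 0.559. The other 5 genes overlapped between the groups, with log2 fold changes of 0.34 for Csf1r (SE 0.26), 0.28 for Csf2rb2, 0.26 for Csf2rb, -0.17 for Csf3r, and -0.21 for Csf2ra. In all, 0 of the 6 were called with edgeR, beside 0.00562% of all genes, and 0 with DESeq2, beside 141 genes. An unadjusted p under 0.05 was seen for 1 of the 6 and for 1642 of the 17795 genes tested.

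Csf1r, Csf2ra, and Csf2rb were higher in NPmut libraries than in either single mutant, Il3ra and Csf2rb2 passed against p53mut and not against NrasG12D libraries, and Csf3r passed against neither. Against NrasG12D libraries, Csf1r was 2.21-fold, Csf2ra 1.74-fold, and Csf2rb 1.69-fold higher, and these 3 of the 6 genes were called, beside 8.88% of all genes in either direction and 3.92% that were higher. Against p53mut libraries, Csf1r was 2.52-fold, Csf2rb2 1.89-fold, Csf2rb 1.85-fold, Il3ra 1.76-fold, and Csf2ra 1.68-fold higher, and these 5 of the 6 were called, beside 9.95% of all genes and 4.81% that were higher. The comparisons share the NPmut libraries, so their calls are not independent of each other.

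Csf1r had 58.3, 71.2, and 79.1 CPM in NrasG12D libraries, all below the lowest NPmut library at 121 CPM. On the log2 scale, Csf1r differed by 1.14 (SE 0.25, adjusted p = 0.0117) from NrasG12D and by 1.33 (SE 0.25, adjusted p = 0.00462) from p53mut libraries. Against NrasG12D, the call of Csf1r was lost without NrasG12D 1 (adjusted p = 0.0666) and without NPmut 2 (0.0503). Csf2rb had 72.3, 83.4, and 83.1 CPM in NrasG12D and 69.4, 89.3, and 59.5 CPM in p53mut libraries, below the NPmut range of 112 to 153 CPM. It differed by 0.76 (log2; SE 0.15, adjusted p = 0.00631) from the former and by 0.89 (SE 0.15, adjusted p = 0.00215) from the latter, and both calls held in every refit but were lost where at least a 2-fold change was required.

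The calls of Csf2ra, Csf2rb2, and Il3ra did not hold when certain single libraries were left out. Csf2ra had 62.8, 48.4, and 72.6 CPM in NrasG12D and 50.6, 80.9, and 58.9 CPM in p53mut libraries, and NPmut 3, at 67.4 CPM, lay within both ranges. Its log2 fold changes were 0.80 (adjusted p = 0.0319) and 0.75 (adjusted p = 0.0399). Of 15 refits each, 8 called Csf2ra against NrasG12D and 7 against p53mut. The adjusted p-value passed 0.05 upward, to between 0.0553 and 0.140 against NrasG12D, without NrasG12D 1 or 2 or NPmut 1, 2, or 4, and to between 0.0710 and 0.1801 against p53mut, without p53mut 1 or 3 or NPmut 1, 2, or 4. Csf2rb2, with 8.74, 9.30, and 8.74 CPM in NrasG12D and 7.90, 7.004, and 7.76 CPM in p53mut libraries, differed from NrasG12D by a log2 fold change of 0.68 (adjusted p = 0.0868; 0.0271 without NPmut 4) and from p53mut by 0.92 (adjusted p = 0.0232). The latter call was lost without any 1 of the p53mut libraries or without NPmut 1 (adjusted p from 0.0656 to 0.0923). Il3ra did not pass against NrasG12D (log2 fold change 0.35, adjusted p = 0.233), where NPmut 3 lay at the level of the NrasG12D libraries, and passed against p53mut (0.82, adjusted p = 0.00928), but not without p53mut 1 (0.0559) or p53mut 3 (0.0647). Csf3r passed in neither, with log2 fold changes of -0.16 and -0.23.

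Whether the difference in NPmut libraries went beyond the sum of both single-mutant differences was tested as an interaction on the log2 scale. It was positive for Csf1r (0.99, SE 0.35, adjusted p = 0.181), Csf2ra (0.96, SE 0.31, adjusted p = 0.137), Csf2rb (0.63, SE 0.22, adjusted p = 0.160), and Csf2rb2 (0.64, SE 0.34, adjusted p = 0.380). It was 0.13 (SE 0.26) for Il3ra and -0.06 (SE 0.17) for Csf3r. With edgeR, 0 of the 6 were called, beside 1.74% of all genes, and with DESeq2 0, beside 876 genes. An unadjusted p under 0.05 was seen for 3 of the 6 and for 2859 of the 17795 genes tested. Csf1r was called without p53mut 2 (1.44, adjusted p = 0.0117) and Csf2ra without NPmut 3 (1.13, adjusted p = 0.0246), and without a filter on low counts both and Csf2rb were (adjusted p from 0.000241 to 0.0472).

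**Figure D3:**
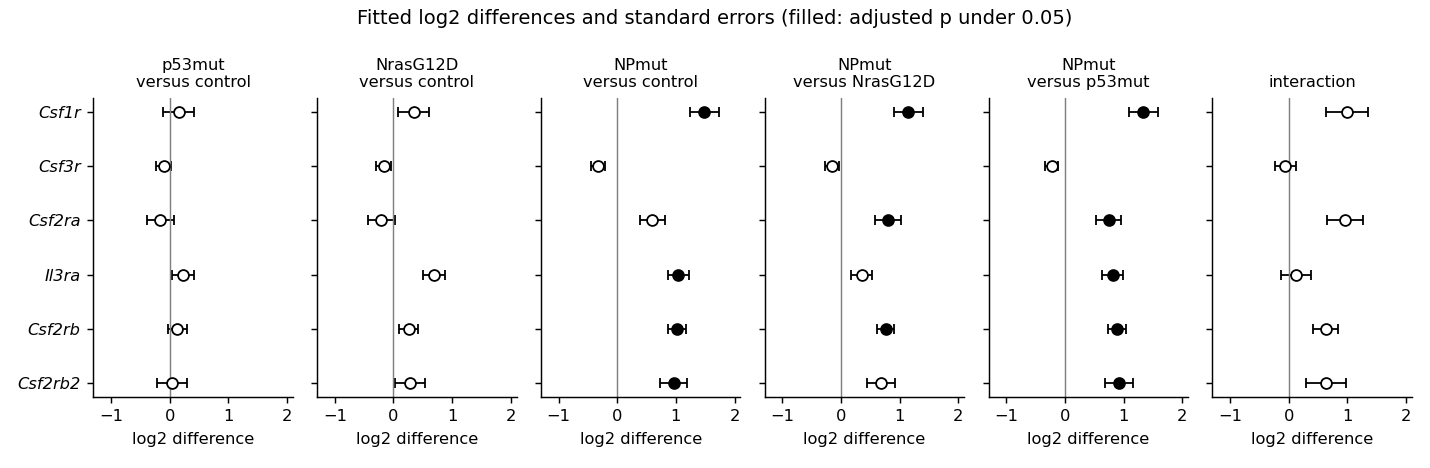
Fitted log2 differences of the 6 receptor genes in each comparison, with bars for the standard error and filled points for an adjusted p-value under 0.05. Filled points are 0 for either single mutant against control, 4 for NPmut against control, 3 against NrasG12D, 5 against p53mut, and 0 for the interaction.

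Ratios of receptors within a library, which do not depend on scaling between libraries, were compared between NPmut and control and between NPmut and NrasG12D libraries, 8 tests in all. With 4 against 3 libraries, the exact two-sided permutation test cannot give a p below 0.0571, so none could pass 0.05. The log2 ratio of Csf1r to Csf3r RPKM was -1.69, -1.07, and -1.32 in control, -1.47, -0.57, and -1.56 in p53mut, -0.95, -0.84, and -0.79 in NrasG12D, and 0.71, 0.65, 0.39, and -0.03 in NPmut libraries. Every NPmut library was above every other library, and in 3 of the 4 Csf1r exceeded Csf3r. The mean was 1.79 higher than in control and 1.29 higher than in NrasG12D libraries (both exact p = 0.0571, the smallest possible, and 0.152 after Benjamini-Hochberg adjustment).

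The log2 ratio of the alpha chains, Il3ra to Csf2ra, was -2.59, -2.56, and -2.55 in control libraries and higher in all others, from -2.25 to -2.03 in p53mut, -1.88 to -1.39 in NrasG12D, and -2.28 to -1.87 in NPmut libraries. The NPmut mean exceeded the control mean by 0.47 (exact permutation p = 0.0571, adjusted p = 0.152). The NrasG12D mean was the highest of the 4, -1.65 ± 0.247 (SD, n = 3), although its libraries overlapped the NPmut libraries. Csf2ra relative to the summed beta chains had a log2 ratio of 1.21 ± 0.119 in control and 0.76 ± 0.411 in NPmut libraries (difference -0.45, exact permutation p = 0.171). These groups overlapped through NPmut 4 at 1.31. Csf2rb2 made up 14.6% ± 2.82 of the summed beta chain RPKM in control, 14.1% ± 3.04 in p53mut, 14.7% ± 0.879 in NrasG12D, and 13.7% ± 2.84 in NPmut libraries. The NPmut mean differed from control by -0.85 percentage points (exact permutation p = 0.743), within the spread between libraries, and reads that fit both genes limit this share.

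**Figure D4:**
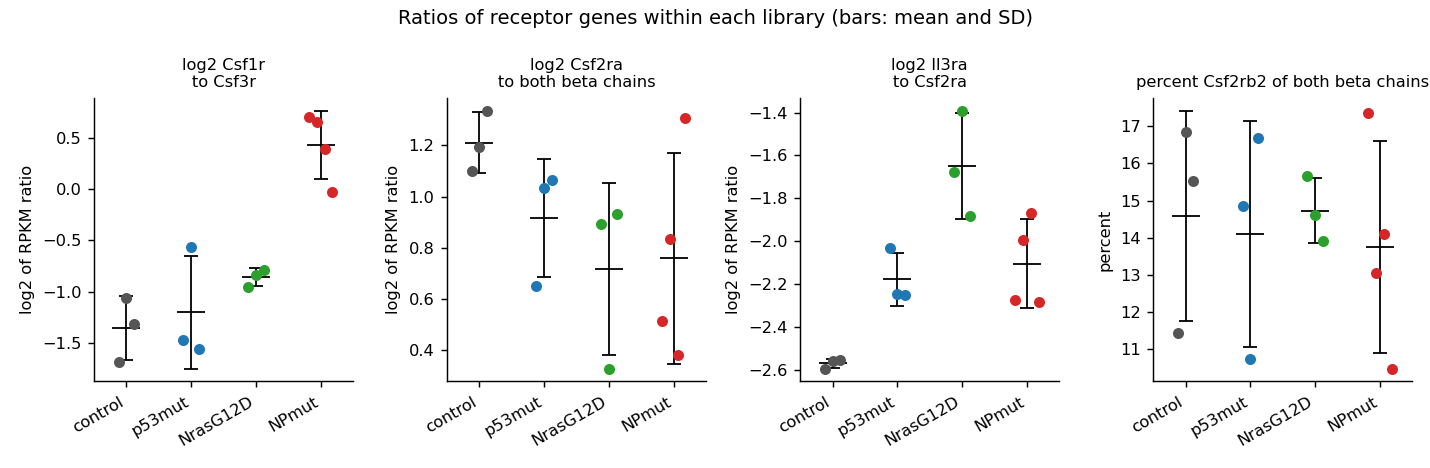
Log2 ratios of RPKM for Csf1r to Csf3r, Csf2ra to the summed beta chains, and Il3ra to Csf2ra, and the percentage of Csf2rb2 in the summed beta chains, in each library, with bars for the mean and SD. The Csf1r to Csf3r ratio separates NPmut from all other libraries, whereas the beta chain share overlaps in all 4 groups.

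Among the 12976 genes whose log2 CPM averaged 1 or more, those whose levels most resembled each receptor over the 13 libraries were listed as a description. All libraries enter these correlations, so differences between the groups weigh in them. Csf1r was closest to Mpeg1, which encodes a macrophage pore-forming protein (Pearson's r = 0.980), Irf8, a transcription factor of monocytes and dendritic cells (0.979), and Unc93b1, a chaperone of endosomal Toll-like receptors (0.978). Csf2rb was closest to Prkcd (0.985), a protein kinase C gene, Pld4 (0.984), and Csf1r itself (0.975). The likeness of Csf1r and Csf2rb also stood within groups, with r = 0.870 for deviations from the group means. The weaker matches were Mettl6, C3, and Mtm1 for Csf2ra (0.959 to 0.962), Arl4c, Filip1l, and Cd44 for Csf2rb2 (0.915 to 0.957), Grk2, Usf1, and Vav1 for Il3ra (0.933 to 0.944), and Dock1, Tlr4, and Zhx2 for Csf3r (0.840 to 0.853). Csf2ra and Il3ra, the alpha chains, had r = 0.692 over all libraries and 0.862 within groups.

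The ligands of these receptors were scarce in the sorted cells. Csf1 had 7.20 ± 1.52 CPM (SD, n = 3) in control, 5.35 ± 0.836 in p53mut, 9.30 ± 2.00 in NrasG12D, and 6.07 ± 0.803 (n = 4) in NPmut libraries, with a log2 fold change of -0.25 in NPmut against control (adjusted p = 0.514). No library had more than 9 counts of Csf2, 5 of Csf3, 4 of Il3, 3 of Il34, or 2 of Il5, all too few to be tested. Il5ra, the alpha chain that joins CSF2RB in the IL-5 receptor, had at most 17 counts and was not called.

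Other cytokine receptors moved in both directions in NPmut against control libraries, 10 of 29 tested higher and 5 lower, with a median log2 fold change of 0.44. Of all genes tested, 5.38% were higher and 5.54% lower in that comparison. The largest increases were of Lifr (2.47), Il10ra (1.81), Il6st (1.45), and Il6ra (1.20), the last pair being the signaling and ligand-binding chains of the IL-6 receptor. Decreases included those of Ghr (-2.16), the growth hormone receptor, Il1rl1 (-1.54), and Il27ra (-1.38). Adjusted p-values of these 7 ran from 0.000217 to 0.0292. In NrasG12D against control libraries, the median of the 29 was 0.42, with 0 called. An unadjusted p under 0.05 was seen there for 13 of them and for 1642 of the 17795 genes tested. In NPmut against NrasG12D libraries, the median was 0.006. Ghr averaged 1.58 CPM in control, 0.552 in NrasG12D, and 0.333 in NPmut libraries. In NrasG12D libraries, Il1rl1 averaged 49.5 CPM and Il27ra 9.10, against 34.9 and 8.81 in control.

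Of the 33 kinases, adaptors, and effectors downstream of the receptors, 7 were higher and 3 lower in NPmut against control libraries. Of all genes tested, 5.38% were higher and 5.54% lower. The median log2 fold change of the 33 was 0.01, as over all genes. Tyrobp, an adaptor of myeloid receptors (1.91), Fes (0.70), and the PI3K subunit gene Pik3r5 (0.65) were higher. Src (-1.98), the RAS exchange factor gene Sos1 (-0.65), and Stat5a (-0.47) were lower. Jak2, the kinase bound by the beta chains, did not pass (-0.15, adjusted p = 0.408). Of 19 negative regulators, 4 were higher, namely Lilrb4a (3.32), Sh2b3 (0.77), Sla (0.57), and Ptpn6 (0.55), and 1 was lower, Cish (-1.36), which is itself a STAT5 target and whose libraries overlapped. Those of Lilrb4a overlapped too, with 0.697 to 13.2 CPM in NPmut and 0.612 to 0.862 CPM in control libraries. Cish averaged 6.13 CPM in control, 3.15 in p53mut, 2.20 in NrasG12D, and 2.38 in NPmut libraries.

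Of 15 cytokine-induced genes, 6 were higher and 0 lower in NPmut against control libraries, beside 5.38% and 5.54% of all genes tested. Their median log2 fold change was 0.53. Id2 (2.17), Id1 (1.88), Osm (1.86), and Ccnd1 (1.66) led, which encode inhibitors of DNA binding, a cytokine, and cyclin D1. Osm overlapped, with 3.91 to 35.1 CPM in NPmut and 5.12 to 5.71 CPM in control libraries. Ccnd1 averaged 15.3 CPM in control, 39.2 in NrasG12D, and 48.2 in NPmut libraries. In the same order, Id2 averaged 3.24, 5.32, and 14.5 CPM, and Id1 1.32, 1.34, and 4.88 CPM. An unadjusted p under 0.05 was seen for 9 of the 15 and for 4561 of the 17795 genes tested. Of 20 transcription factors of myeloid and erythroid genes, 6 were higher, led by Klf4 (2.85), Id2, Irf8 (1.85), and Cebpb (1.16), and 3 lower, Gata1 (-1.80), Gata2 (-1.64), and Gfi1b (-1.41), with adjusted p-values from 0.000440 to 0.0463. Spi1, which encodes PU.1, was higher as well (0.80, adjusted p = 0.0207).

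Some markers of monocytes and macrophages rose in the libraries in which Csf1r rose, and others did not pass. Leaving out Csf1r, 16 markers summed to 596 to 689 CPM in control, 545 to 969 in p53mut, 481 to 753 in NrasG12D, and 1445 to 2531 in NPmut libraries, and 0 of the 16 were at 0 in any whole group. F13a1 alone made up 346 of the mean sum of 646 CPM in control and 1032 of 1844 CPM in NPmut libraries. With Csf1r in the list, 7 of 15 tested were higher and 0 lower in NPmut against control libraries, led by Ctss (2.64), Ms4a6c (2.03), and F13a1 (1.58), while C1qa and Cd5l, genes of resident macrophages, had at most 16 counts in any library and were not tested. Vcam1 (-1.09, adjusted p = 0.125), Mrc1 (-0.58, 0.226), C1qb (-1.53, 0.212), and C1qc (-1.20, 0.267) had lower fitted values that did not pass. Dendritic cell markers were higher for 4 of 8 and lower for 1, megakaryocyte markers lower for 6 of 6, erythroid and MEP markers lower for 3 of 10, and stem cell and MPP markers lower for 7 of 11. Beside these marker counts, 5.38% of all genes tested were higher and 5.54% lower. Summed neutrophil markers, leaving out Csf3r, lay between 85.6 and 343 CPM in control and between 39.7 and 329 CPM in NPmut libraries. The part of cell composition in the receptor differences was not tested.

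**Figure D5:**
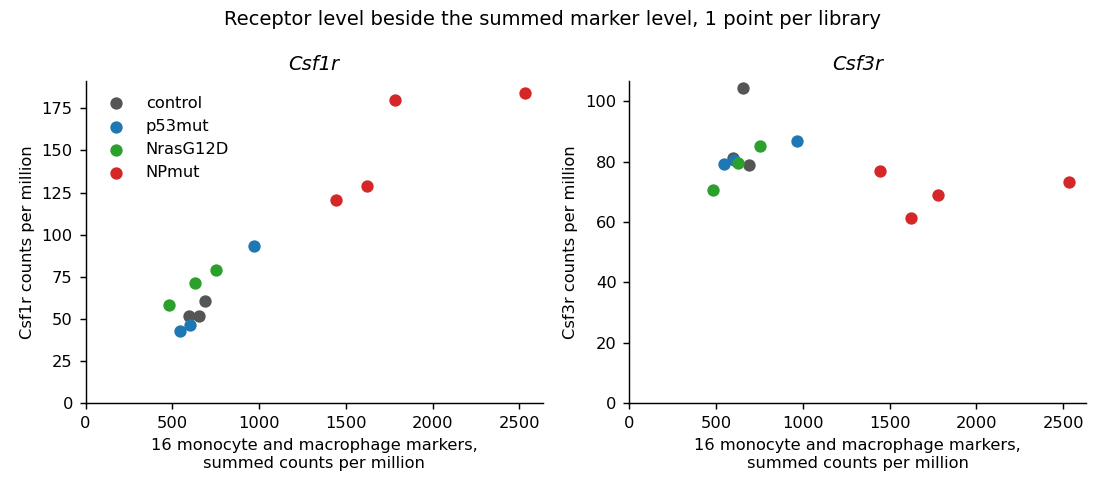
CPM of Csf1r and of Csf3r in each library against the summed CPM of 16 monocyte and macrophage markers. The NPmut libraries, with marker sums of 1445 to 2531, have the 4 highest Csf1r levels (121 to 184) and Csf3r levels of 61.5 to 76.9.

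Promoter windows from RefSeq (GRCm38.p6), 250 bases before to 50 after the start, were at hand for 4 of the 6 genes, Csf2ra, Csf2rb2, Csf3r, and Il3ra. They were searched on both strands for letters bound by some factors of the list above and by AP-1. The PU.1 core GAGGAA occurred in the windows of Csf2ra, Csf2rb2, and Csf3r and in 28.3% of all windows. The C/EBP letters TTNCNNAA occurred in those of Csf2ra, Csf2rb2, and Il3ra and in 40.7% of all, and could overlap a GAGGAA match. None of the 4 held AGATAA, which GATA factors bind and 11.2% of all windows held. The RUNX letters TGTGGT, in 16.8% of all windows, and the AP-1 letters TGANTCA, in 7.81%, were in none of them either. The stretches upstream of the annotated gene are shown for one alpha and one beta chain, with matches in capitals (Csf2ra, chr19:61228430-61228668, minus strand; Csf2rb2, chr15:78305722-78305971, minus strand).
Csf2ra: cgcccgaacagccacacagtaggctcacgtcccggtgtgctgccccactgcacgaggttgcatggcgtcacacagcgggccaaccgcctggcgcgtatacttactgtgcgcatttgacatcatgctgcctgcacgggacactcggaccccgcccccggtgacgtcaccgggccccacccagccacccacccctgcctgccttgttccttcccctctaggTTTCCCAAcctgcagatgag
Csf2rb2: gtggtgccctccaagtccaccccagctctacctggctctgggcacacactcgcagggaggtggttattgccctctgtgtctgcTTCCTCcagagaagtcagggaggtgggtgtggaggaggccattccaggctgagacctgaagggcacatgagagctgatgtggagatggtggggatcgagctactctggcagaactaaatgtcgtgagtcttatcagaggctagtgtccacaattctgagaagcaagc
The match shown for Csf2ra is of the C/EBP letters and that for Csf2rb2 of GAGGAA on the other strand. Matches closer to the start lie outside these stretches, and a match describes letters only.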

How the data were processed

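The authors deposited raw counts per gene of all 13 libraries in 1 table under Ensembl identifiers, made from SMARTer Stranded Total RNA-Seq Pico libraries. The submitters' processing notes name STAR 2.6.1d, R 3.6.1, DESeq2 1.26.0, and GRCm38.p6. The counting program and its strand setting are not given in the sources used here. Of the identifiers, 54809 were matched to GENCODE M21, and 29, with 0.0032% of the counts, were not. 0 columns were left unused.

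The test was that of edgeR 4.0.16 (R 4.3.3), with 1 robust quasi-likelihood fit of all 13 libraries with a mean per group, TMM factors, and filterByExpr. A gene was called at a Benjamini-Hochberg adjusted p under 0.05, taken over the 17795 genes tested. The scripts were tested on simulated data. CPM used TMM-scaled library sizes, and RPKM used library totals and exonic lengths. Nothing beyond 1 library per mouse bears on replication, so p-values measure the spread between mice. The depth of 12576174 to 29124022 counts left at least 95 counts of each receptor gene in every library.

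The receptor genes and all gene lists were chosen with earlier results of these data known. Beside the receptor genes, the text names the ligands, per list up to 4 genes with the largest called changes in each direction, the 3 genes most like each receptor, and overlapping genes. Some genes that this rule names are not reported here. Jak2, Spi1, C1qa, C1qb, C1qc, Cd5l, Mrc1, and Vcam1 are named beyond that rule, with their values known.

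Same-numbered control and p53mut libraries deviated from their group means together in all 3 pairs (r = 0.152 to 0.166), a pairing that comes from the data and not from the labels, and the deviations of a group sum to 0. DESeq2 1.42.0, other scalings and filters, fits of the compared groups alone, a replicate block, libraries left out in turn, summed beta chains, and a fold change minimum were tried. The block in the control and p53mut libraries alone, and sex as a term, were added after the data were seen.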

Additional observations from a re-analysis of the deposited data

How the results depend on the processing

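In NPmut against control libraries, 4 receptor genes were called, and Csf1r, Csf2rb, and Il3ra stayed called in every alternative. Csf2rb2 was called in 12 of 15 refits, and not with only these groups in the fit (adjusted p = 0.0821) or without control 1 or control 3. Its 1.94-fold difference was also lost where a fold change of at least 2 was required. In fits of the compared groups alone, the number of receptor genes called moved from 0 to 1 for NrasG12D against control and from 5 to 2 for NPmut against p53mut. With a fold change of at least 2 required, it was 1 for NPmut against NrasG12D and 1 for NPmut against p53mut. Without a filter on low counts, it was 3 for the interaction. With each library left out in turn, it ran from 1 to 3 for NPmut against NrasG12D, from 2 to 5 for NPmut against p53mut, and from 0 to 1 for the interaction. Leaving out a library also turned values that were not called. In p53mut against control, Csf1r ran from -0.29 to 0.36, Csf2rb from -0.042 to 0.26, Csf2rb2 from -0.064 to 0.19, and Csf3r from -0.18 to 0.047, and the interaction ran from -0.21 to 0.019 for Csf3r and from -0.0077 to 0.30 for Il3ra. Csf2ra to the beta chains ran from -0.15 to 0.17 in NPmut against NrasG12D, and the Csf2rb2 share from -2.43 to 0.27 percentage points against control and from -2.18 to 0.11 against NrasG12D. With TMM-scaled sizes, control RPKM moved to 24.6 for Csf2ra and 4.16 for Il3ra. The cause of these moves was not tested. In the labels, same-numbered libraries of different groups share only a number. For group pairs other than control and p53mut, their correlations ran from -0.11 to 0.29, some of them above those of control and p53mut. In the replicate block over all libraries, Csf2ra was no longer called against NrasG12D (log2 fold change 0.65, adjusted p = 0.0883) or p53mut (0.62, adjusted p = 0.102), and Csf2rb2 was called against NrasG12D (0.82, adjusted p = 0.0247), while no other call of a receptor gene changed. Over all genes, calls ran from 813 to 2843 around 1944 for NPmut against control, from 637 to 2368 around 1581 against NrasG12D, from 648 to 2312 around 1771 against p53mut, from 62 to 933 around 309 for the interaction, from 0 to 273 around 1 for NrasG12D, and from 0 to 56 around 0 for p53mut against control. Sex as a term changed no call of a receptor gene.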
